A study of Mus musculus with 12 samples.

Results

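The genes of the proteasome were followed in whole blood of tumour-bearing mice given an oral inhibitor of the histone methyltransferases EZH2 and EZH1. The members were all genes whose symbol is Psma, Psmb, Psmc, Psmd, Psme, Psmf or Psmg with a number, which gave 49 of the 55367 genes counted. The hosts were CB17-SCID mice, which lack functional B and T lymphocytes, and all of them, controls included, carried tumours grown from HT1376 cells, an established line from a human bladder cancer. For 11 days they received vehicle or CPI0209 (tulmimetostat) at 35 mpk by mouth, 1 dose a day. Blood of the treated mice was drawn at 1 h, 6 h or 24 h after the final dose. Each of the 4 groups had 3 libraries. When the vehicle blood was drawn, and the age and sex of the mice, are not in the labels. Nothing in the labels says that replicates are separate animals, so the p-values measure the spread between these libraries, which may be technical.

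The proteasome is the protease that degrades proteins tagged with ubiquitin. Its 20S core is a barrel of alpha rings, which gate entry, around beta rings, which hold the catalytic sites, and it is capped by the 19S particle, which binds, unfolds and feeds in ubiquitinated substrates, or by activators that act without ubiquitin. Interferon induces, and many white cells contain, immunoproteasome subunits that replace the constitutive catalytic ones and favour peptides for class I antigen presentation. Young red cells (reticulocytes) use the ubiquitin and proteasome system to remove proteins as they mature.

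Total counts ran from 6496573 to 9978215 per library, and levels are given as CPM, each library's counts scaled to a common total by edgeR with TMM factors. Of the 49 members, 47 passed the filter on low counts and were tested among 13384 genes. Psma8, the testis form of an alpha subunit, had 6 counts in all, in 3 libraries, and Psmb11, the catalytic subunit of thymic epithelium, had 0 counts. Blood markers were present, led by Alas2 for reticulocytes at 33700 CPM in vehicle and Lyz2 for monocytes at 4255, while 10 B and T lymphocyte markers summed to 0.754 to 6.41 CPM in each library, with Ms4a1 at 0 in vehicle. The 20 reticulocyte markers moved with time. Their sum was 51280 to 58460 CPM in vehicle, 56230 to 66650 at 1 h and 93630 to 108500 at 6 h. The 24 h sums differed widely, with 29460, 39280 and 81210 CPM. Alas2 and Fech made up most of the sum and were level at 1 h (31920 and 8594 CPM, against 33700 and 9741 in vehicle), but 11 of the 20 markers lay above all vehicle libraries at 1 h (55%, against 8.92% of all genes) and the median log2 fold change was 0.73. Among them were the red cell membrane genes Slc4a1, at 4286 CPM against 1697, and Epb42, at 493 against 125. None of the 20 was called at 1 h. At 6 h against vehicle all 20 had positive fold changes (median log2 1.45) and 12 were called higher (60%, against 4.06% of all genes). Of the others, 1 of 12 neutrophil markers (Mmp8) was called higher, 1 of 9 monocyte markers (Ccr2) lower, and none of 10 NK cell markers. None of 10 platelet markers was called, but 6 lay above all vehicle libraries (60%, against 15.8% of all genes; median log2 0.55). Between 1 h and 6 h the neutrophil markers had the higher median (1.25, against 0.86 for reticulocytes). The sum of 6 general leukocyte markers was 4399 to 4836 CPM in vehicle and 3780 to 3907 at 6 h. In these bulk samples fewer cells of a type and less RNA per cell cannot be told apart.

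Per kb of exon, 1 member stood far above the others in vehicle blood. Psme3, which encodes the nuclear activator PA28gamma, had 654 CPM per kb, 37.4 times the level of Psme4 (17.5), which encodes the activator PA200, and 120 times that of the median member (5.45). By CPM it ranked 49 among the 13384 genes, and it alone held 64.7% to 70.3% of all member counts in vehicle. The 14 constitutive subunits of the 20S core spanned 3.67 (Psma4) to 16.0 (Psma6) CPM per kb, with a median of 8.26. The 6 ATPases of the 19S base, which unfold the substrate, were lower, with a median of 3.98 and a range of 3.26 (Psmc4) to 5.51 (Psmc6). The 8 lid genes ran from 1.92 (Psmd3) to 14.6 (Psmd8). The chaperones that assemble the particles were lowest, with medians of 1.35 CPM per kb for the 3 of the 19S base and 1.73 for the 4 of the 20S core. These levels divide by the union of annotated exons, so a gene whose blood transcript uses few of them is understated.

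**Figure D1:**
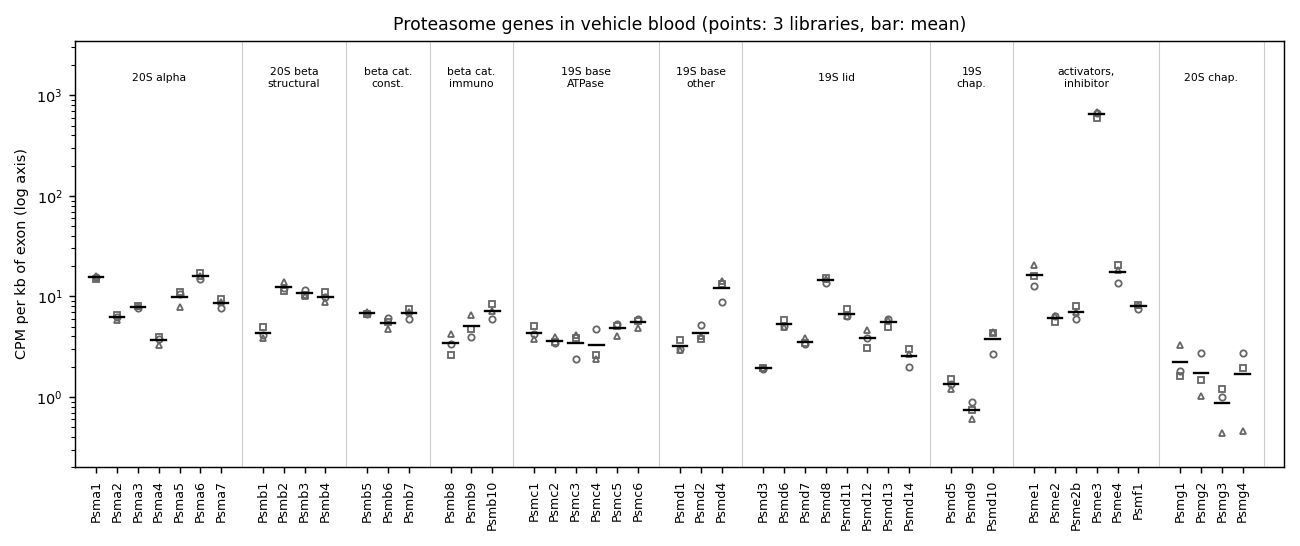
Levels of the 47 tested members in vehicle blood, as CPM per kb of exon on a log axis, by subunit class. Each point is 1 of 3 libraries and the bar is their mean. The mean of Psme3 is 654 CPM per kb, and no other mean exceeds 17.5.

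At 6 h, 5 members were called higher than in vehicle and 1 lower (edgeR quasi-likelihood test, adjusted p under 0.05). The 5 were Psmd2, Psmd4 and Psmd8 of the 19S particle and the activators Psme3 and Psme4, and the 1 was Psme2b. They were 10.6% of the tested members for the higher calls, against 4.06% of all tested genes, and 2.13% for the lower call, against 0.785%. All 3 libraries at 6 h lay above all 3 of vehicle for 12 members (25.5%, against 15.8% of all genes) and below them for 4 (8.51%, against 13.5%). The members' median log2 fold change was 0.09, beside -0.04 over all genes. The count of 6 calls fell to 2 without vehicle replicate 1 (Psmd2 and Psme2b) and to 3 without vehicle replicate 2 or 6 h replicate 2 (Psmd2, Psmd4 and Psme4 each time). How many of all genes these fits called is not given here. Scaling by library totals alone shifted the values at 6 h down, with the median of all genes at -0.50 and that of the members at -0.37. It turned the balance of calls over all genes from 543 higher and 105 lower to 344 higher and 1488 lower, and left 3 members higher (Psmd4, Psme3 and Psme4) and 2 lower (Psme2b and the lid subunit Psmd3).

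**Figure D2:**
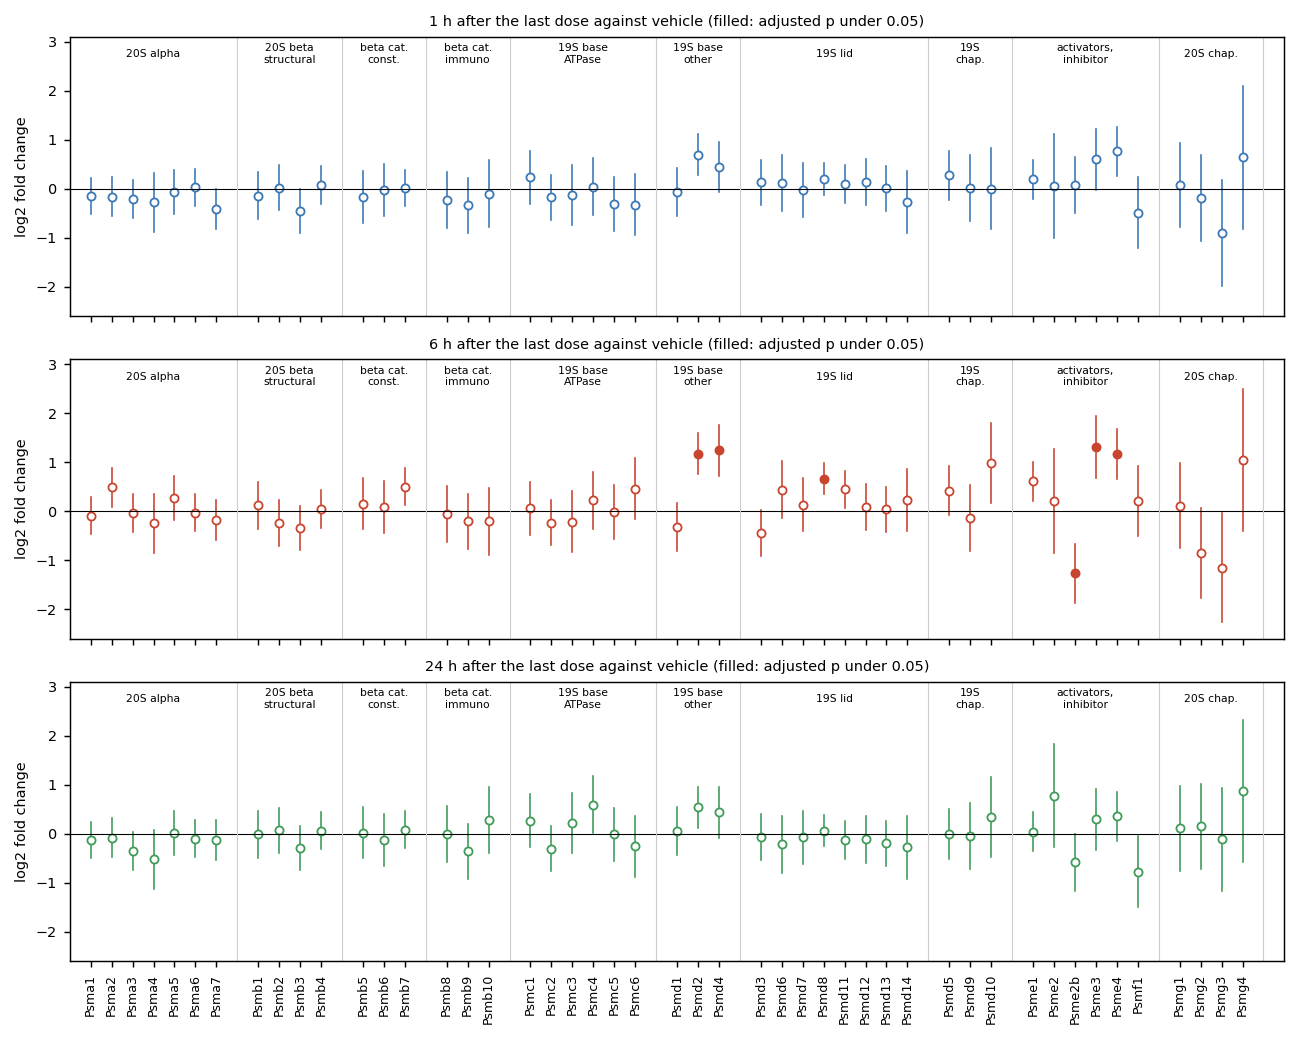
Log2 fold change of each tested member against vehicle at 1 h, 6 h and 24 h, with its 95% interval, by subunit class. Filled points passed the adjusted p of 0.05: 0 at 1 h, 6 at 6 h and 0 at 24 h, and the values of the 20S core genes lie between -0.52 and 0.50.

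In the 19S particle, 3 of 17 subunit genes were called higher at 6 h (17.6%, against 4.06% of all genes). None was called lower, where 0.785% of all genes were. Psmd4 encodes the ubiquitin receptor Rpn10. It had 24.5, 37.7 and 39.7 CPM in vehicle, 41.1, 55.2 and 42.1 at 1 h, 74.5, 84.9 and 82.3 at 6 h and then 36.3, 37.5 and 64.4 at 24 h. Every 6 h library exceeded every library of the other groups, and the third 24 h library stood above the other 2. Its log2 fold change at 6 h was 1.25 (SE 0.24, adjusted p = 0.0088), and without vehicle replicate 1 it was 1.04 (adjusted p = 0.053).

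Psmd2 encodes Rpn1, the scaffold on which shuttle factors and the deubiquitinase Usp14 dock. It had 21.04, 15.3 and 16.4 CPM in vehicle, 28.2, 25.1 and 32.3 at 1 h, 44.0, 42.8 and 32.1 at 6 h and then 23.9, 24.8 and 28.0 at 24 h. All treated libraries exceeded all vehicle libraries at each time, while the third 6 h library lay within the range at 1 h. The log2 fold change at 6 h was 1.17 (SE 0.19), with an adjusted p of 0.003. Against the same vehicle libraries it was 0.70 at 1 h and 0.54 at 24 h, each with an SE of 0.19, and neither passed (adjusted p of 0.24 and 0.48). It was the 1 member among the 6 whose call at 6 h remained in each of 12 fits that left out a library, and by library totals alone it was 0.71 (adjusted p = 0.052).

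Psmd8 encodes Rpn12, a lid subunit. It had 41.7, 46.9 and 45.2 CPM in vehicle, 49.2, 54.2 and 50.6 at 1 h, 62.0, 75.5 and 74.3 at 6 h and then 41.5, 47.2 and 51.6 at 24 h. The 6 h libraries were above all others and the 24 h libraries overlapped those of vehicle. The log2 fold change at 6 h was 0.66 (SE 0.15, adjusted p = 0.021). The call was lost without any 1 of the 3 vehicle libraries or without 6 h replicate 2 or 3 (0.60 to 0.68, adjusted p 0.069 to 0.11), and by library totals alone the value was 0.21 (adjusted p = 0.39).

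The other 14 genes of the particle did not pass. Among the ATPases, values at 6 h ran from -0.24 (Psmc2) to 0.46 (Psmc6). Among the other lid genes they ran from -0.45 for Psmd3 (SE 0.22, adjusted p = 0.28) to 0.45 for Psmd11 (SE 0.18, adjusted p = 0.18). Psmd1, which encodes the scaffold Rpn2, had -0.32 (SE 0.23, adjusted p = 0.48), against the positive values of Psmd2 and Psmd4 in the same base. Of the 3 chaperones of the 19S base, Psmd10 had 0.98 (SE 0.38, adjusted p = 0.16), Psmd5 0.42 and Psmd9 -0.14.

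At 6 h the activators held the highest and the lowest fold change, that of Psme3 and that of Psme2b. Psme3 had 1993, 1755 and 2038 CPM in vehicle, 2882, 3045 and 2851 at 1 h, 5065, 4910 and 4374 at 6 h and then 1319, 2045 and 3724 at 24 h. The 1 h libraries lay between those of vehicle and 6 h without overlap, and the 24 h libraries spanned from below vehicle to above 1 h. The log2 fold change was 1.31 at 6 h (SE 0.29, adjusted p = 0.02), 0.60 at 1 h (adjusted p = 0.72) and 0.29 at 24 h (adjusted p = 0.84). With only the vehicle and 1 h libraries in the fit, the value at 1 h passed (0.62, adjusted p = 0.019). The call at 6 h was lost without any 1 of the 3 vehicle libraries or without 6 h replicate 1 or 2, with values of 1.22 to 1.34 and adjusted p of 0.058 to 0.10. The share of member counts held by Psme3 was 77.4% to 80.5% at 6 h. Without Psme3 and Psme4, the members summed to 730 to 786 CPM in vehicle and 907 to 936 at 6 h.

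Psme4 encodes PA200, a nuclear cap known for the degradation of acetylated histones. It had 114, 170 and 155 CPM in vehicle, 240, 274 and 232 at 1 h, 323, 326 and 344 at 6 h and then 119, 183 and 260 at 24 h. As for Psme3, the vehicle, 1 h and 6 h libraries formed separate ranges in that order. Its log2 fold change was 0.76 at 1 h (SE 0.24), where it did not pass (adjusted p = 0.33). It passed at 1 h without 24 h replicate 1 (0.78, adjusted p = 0.048), with no filter on low counts (adjusted p = 0.032) and with only the 2 groups compared (adjusted p = 0.031). At 6 h it was 1.17 (SE 0.24) with an adjusted p of 0.011, and without vehicle replicate 1 it was 1.00 (adjusted p = 0.072).

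Psme1 and Psme2 encode the alpha and beta chains of PA28, the activator induced by interferon gamma. Psme1 had 28.1 to 45.2 CPM in vehicle and 52.5 to 57.3 at 6 h. These ranges did not overlap, and the log2 fold change of 0.61 (SE 0.18) missed the threshold (adjusted p = 0.072). It was called by DESeq2 (0.62, adjusted p = 0.032) and in edgeR without vehicle replicate 3, 24 h replicate 1 or 24 h replicate 3 (0.59 to 0.79, adjusted p of 0.045 to 0.048). By library totals alone it was 0.16 (adjusted p = 0.55). Psme2 had 9.78 to 11.3 CPM in vehicle and 8.06 to 18.6 at 6 h, with a log2 fold change of 0.21 (SE 0.50, adjusted p = 0.86).

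Psme2b, a near copy of Psme2, had 4.997, 6.77 and 5.85 CPM in vehicle, 6.26, 6.84 and 5.60 at 1 h, 2.24, 2.35 and 2.70 at 6 h and then 4.42, 3.47 and 3.91 at 24 h. The 6 h libraries were below all others, from 15, 19 and 21 counts, and the log2 fold change was -1.27 (SE 0.28, adjusted p = 0.021). The call was lost without vehicle replicate 2 or 3 or 6 h replicate 1 or 2 (-1.28 to -1.18, adjusted p 0.053 to 0.091), and with no filter on low counts (adjusted p = 0.051). The transcripts of Psme2b and Psme2 shared 789 of 794 aligned bases (99.4%), so the way reads were divided between them is uncertain. Annotated exons of Psme2b (ENSMUSG00000078153, GRCm38 chr11:48945354-48946190) also overlap those of 9930111J21Rik1 on the same strand over 4.90% of their length. With Psme2 and Psme2b summed, the log2 fold change was -0.16 (SE 0.42, adjusted p = 0.88).

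Psmf1 encodes PI31, which binds the 20S core and inhibits it in vitro. It had 48.4, 52.7 and 53.1 CPM in vehicle, 36.0, 39.5 and 34.6 at 1 h, 66.2, 62.5 and 49.5 at 6 h and then 14.7, 21.2 and 55.2 at 24 h. The 1 h libraries were all below vehicle, and at 24 h 2 libraries were far below it and 1 was above. The log2 fold change at 24 h was -0.77 (SE 0.34, adjusted p = 0.59), and without 24 h replicate 3 it was -1.52 (adjusted p = 0.0072).

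**Figure D3:**
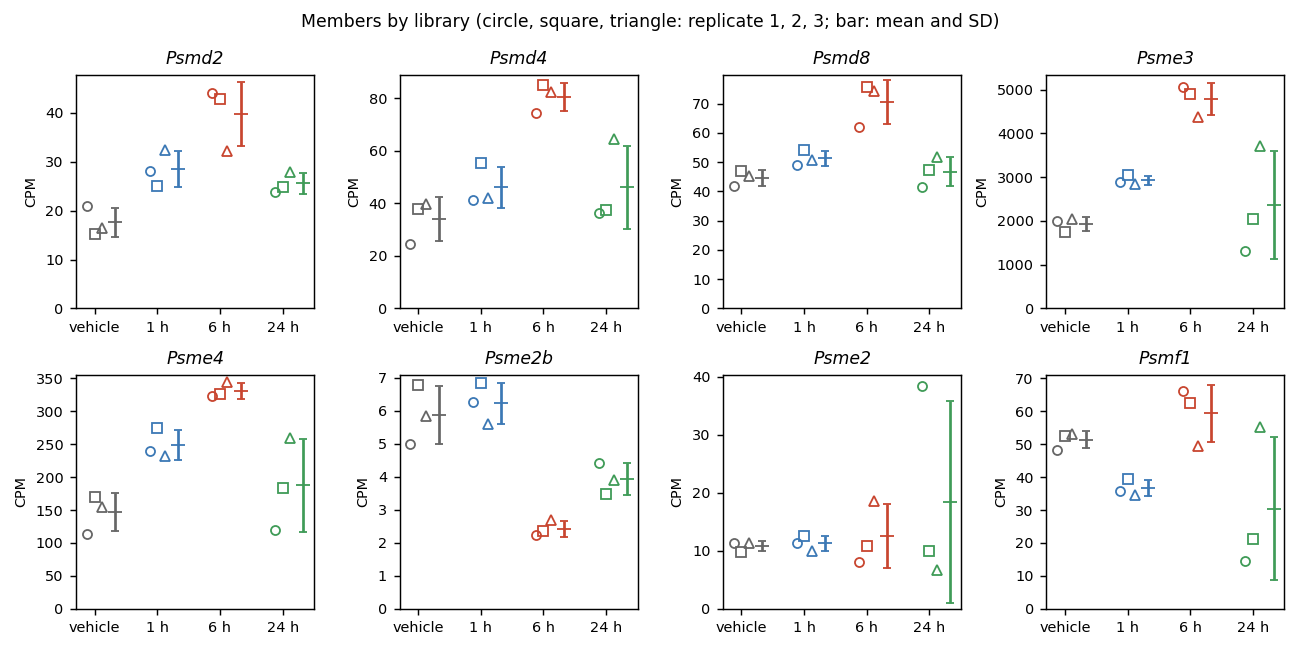
CPM of 8 members in each library, with the mean and SD of each group beside the points. The first 5 panels are the members called higher at 6 h, Psme2b was called lower, and Psme2 and Psmf1 show the wide spread at 24 h.

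The DNA before the 5 genes called higher at 6 h is shown. They were picked by that call, which does not show that they share a control. Promoter windows of the RefSeq annotation on GRCm38.p6 were found for 41 of the 49 members, in 44 windows, out of 32851 in all. Not matched were Psma8, Psmb1, Psmb2, Psmb7, Psmc3, Psmd3, Psmd7 and Psmg2. Each line gives the 250 bases before the RefSeq start, 5′ to 3′ on the gene's own strand. GENCODE M21, used for gene positions, starts Psme4 at 30771726 and Psmd8 at 29180701, inside these windows, so their last bases lie within the gene by that annotation. Capitals mark the ETS word CCGGAAG and the GATA words, each on either strand. The GATA words searched were AGATAA with TGATAA, then AGATAG with TGATAG.
Psmd2 (chr16:20651402-20651651, plus strand): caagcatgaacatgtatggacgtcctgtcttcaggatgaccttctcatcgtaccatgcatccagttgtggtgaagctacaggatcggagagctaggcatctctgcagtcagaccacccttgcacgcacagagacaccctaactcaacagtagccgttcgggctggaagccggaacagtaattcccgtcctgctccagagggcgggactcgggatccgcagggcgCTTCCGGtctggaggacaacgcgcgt
Psmd4 (chr3:95042615-95042864, minus strand): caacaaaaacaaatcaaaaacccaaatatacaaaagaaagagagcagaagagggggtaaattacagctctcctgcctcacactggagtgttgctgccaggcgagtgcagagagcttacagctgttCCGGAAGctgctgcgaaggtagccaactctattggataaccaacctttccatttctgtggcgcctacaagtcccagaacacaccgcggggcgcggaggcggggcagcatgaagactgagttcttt
Psmd8 (chr7:29180674-29180923, minus strand): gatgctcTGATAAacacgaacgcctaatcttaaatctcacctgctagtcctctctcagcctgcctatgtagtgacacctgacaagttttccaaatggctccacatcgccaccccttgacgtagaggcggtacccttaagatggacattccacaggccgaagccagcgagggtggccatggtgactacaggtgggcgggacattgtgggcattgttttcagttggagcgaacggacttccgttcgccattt
Psme3 (chr11:101315963-101316212, plus strand): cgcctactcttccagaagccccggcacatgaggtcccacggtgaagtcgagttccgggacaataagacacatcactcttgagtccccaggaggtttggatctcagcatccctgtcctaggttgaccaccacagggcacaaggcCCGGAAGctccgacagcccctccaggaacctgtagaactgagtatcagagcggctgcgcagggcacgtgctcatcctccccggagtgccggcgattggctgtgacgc
Psme4 (chr11:30771525-30771774, plus strand): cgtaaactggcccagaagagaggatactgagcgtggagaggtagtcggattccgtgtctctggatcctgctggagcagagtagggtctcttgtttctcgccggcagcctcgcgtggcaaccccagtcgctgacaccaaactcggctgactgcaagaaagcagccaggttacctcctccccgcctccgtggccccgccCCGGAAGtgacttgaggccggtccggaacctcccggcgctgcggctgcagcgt

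The ETS word, the core that ETS family transcription factors recognise, was found before Psmd2, Psmd4, Psme3 and Psme4 and not before Psmd8. Its distance from the start was 26 bases in Psmd2, 125 in Psmd4, 107 in Psme3 and 53 in Psme4, counted from the farther end of the word to the RefSeq start. In Psme4 the word spans the GENCODE start. It stood in 13 of the 44 member windows (29.5%), of 12 genes, and in 6.91% of all windows. The other 8 of these genes were Psma6, Psmc1, Psmc2, Psmc6, Psmd11, Psmd12, Psmd6 and Psmg1, of which none was called at 6 h. A GATA word, the core bound by GATA factors, was found among the 5 windows only before Psmd8, in 11.4% of member windows and 26.5% of all. Of 3 further words, the antioxidant response core TGACNNNGC, which Nfe2l1 binds at proteasome genes, stood in 11.4% of member windows and 10.2% of all, and in none of the 5. The interferon regulatory factor word GAAANNGAA stood in 6.82% of member windows and 7.13% of all, and before Psmd4 among the 5. The CCAAT box stood in 31.8% and 33.8%, and before Psmd4 and Psme3. No match in the 5 windows overlapped another. The words were chosen with the results known, and a match is a description of letters, not of binding.

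None of the 17 tested genes of the 20S core passed at 6 h, where 4.84% of all genes did. Their median log2 fold change was -0.04. In the alpha rings the values ran from -0.24 for Psma4 (SE 0.28) to 0.49 for Psma2 (SE 0.19, adjusted p = 0.16). In the structural beta subunits they ran from -0.34 for Psmb3 (SE 0.21, adjusted p = 0.41) to 0.13 for Psmb1. The 95% interval of Psma6, the most abundant core subunit per kb, was -0.41 to 0.36, so a log2 change of the size seen for Psme3 lay outside it. The 4 chaperones of 20S assembly had few counts and wide errors, from -1.15 for Psmg3 (SE 0.52, adjusted p = 0.24) to 1.05 for Psmg4 (SE 0.68, adjusted p = 0.42).

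The constitutive catalytic subunits were set beside those of the immunoproteasome. Psmb5, with the chymotrypsin-like site, had 6.04, 6.02 and 6.24 CPM in vehicle, 5.86, 5.59 and 4.85 at 1 h, 6.57, 6.31 and 7.46 at 6 h and then 7.45, 5.63 and 5.47 at 24 h. Psmb6, with the caspase-like site, had 11.4, 10.3 and 8.91 CPM in vehicle, 11.0, 8.90 and 10.3 at 1 h, 8.66, 10.9 and 12.98 at 6 h and then 11.99, 9.21 and 6.88 at 24 h. Psmb7, with the trypsin-like site, had 20.5, 25.6 and 24.2 CPM in vehicle, 22.1, 24.3 and 24.7 at 1 h, 27.2, 37.0 and 35.4 at 6 h and then 23.3, 26.3 and 24.7 at 24 h. The 6 h libraries were above all vehicle libraries for Psmb5 and Psmb7 and overlapped them for Psmb6. None passed at 6 h. The log2 fold changes were 0.15 for Psmb5 (SE 0.24), 0.09 for Psmb6 (SE 0.25) and 0.50 for Psmb7 (SE 0.17), with adjusted p of 0.79, 0.88 and 0.12. By library totals alone those of Psmb5 and Psmb6 turned to -0.30 and -0.37, and that of Psmb7 was 0.05 (adjusted p = 0.88).

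Of the immunoproteasome genes, Psmb8, which takes the place of Psmb5, had 11.4, 8.92 and 14.4 CPM in vehicle, 11.8, 9.24 and 8.62 at 1 h, 9.71, 11.4 and 12.1 at 6 h and then 15.4, 11.3 and 7.97 at 24 h. Psmb9, which takes that of Psmb6, had 14.5, 17.2 and 23.8 CPM in vehicle, 12.9, 18.02 and 12.8 at 1 h, 14.04, 13.7 and 20.3 at 6 h and then 18.1, 14.1 and 10.9 at 24 h. Psmb10, which takes that of Psmb7, had 10.2, 14.4 and 12.2 CPM in vehicle, 9.94, 6.62 and 17.7 at 1 h, 8.81, 11.4 and 11.7 at 6 h and then 17.0, 16.9 and 10.6 at 24 h. All groups overlapped vehicle for each of the 3 genes. The log2 fold changes at 6 h were -0.06 (SE 0.27, 95% interval -0.64 to 0.51), -0.21 (SE 0.26, -0.76 to 0.35) and -0.21 (SE 0.32, -0.89 to 0.48), and none passed at any time. Annotated exons of Psmb9 overlap those of Tap1 on the other strand over 5.79% of their length, and no source used here says whether counting used strand.

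Per kb of exon, the immunoproteasome genes held 41.5% to 48.9% of the summed level of all 6 in vehicle, 39.0% to 47.5% at 1 h, 36.8% to 38.5% at 6 h and 40.6% to 47.5% at 24 h. The mean log2 CPM of the 3 immunoproteasome genes minus that of the 3 constitutive ones was 0.08, 0.15 and 0.53 in vehicle and 0.03, -0.05 and 0.21 at 1 h. In the 6 h libraries it was -0.12, -0.17 and -0.09, and in those of 24 h 0.38, 0.31 and -0.01. The values at 6 h were below every library of the other groups, and the mean difference from vehicle was -0.38. Most of it lay in the pair Psmb10 and Psmb7, whose difference was -0.98 to -0.82 in vehicle and -1.68 to -1.58 at 6 h. The difference of Psmb8 and Psmb5 (0.55 to 1.17 in vehicle, 0.55 to 0.83 at 6 h) and that of Psmb9 and Psmb6 (0.34 to 1.39, and 0.33 to 0.68) overlapped. As scores over chosen members, these differences are given without a test.

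**Figure D4:**
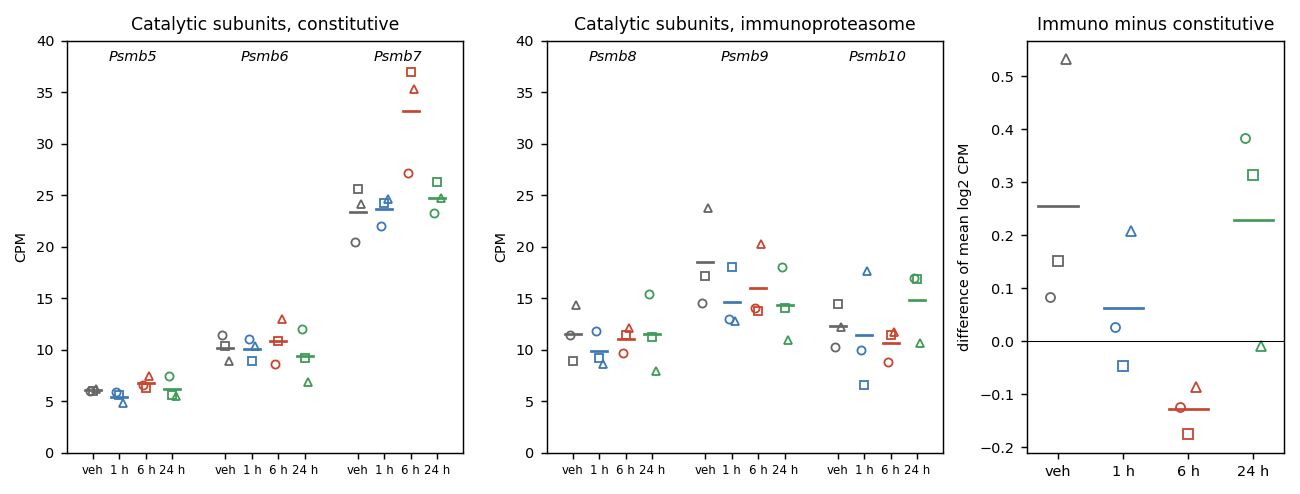
CPM of the constitutive (left) and immunoproteasome (middle) catalytic subunits in each library, with group means as bars, and the difference of their mean log2 CPM (right). The right panel shows the 3 libraries at 6 h below 0, at -0.17 to -0.09, while vehicle lies at 0.08 to 0.53.

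At 1 h no member passed against vehicle, where 0.194% of all tested genes did. An unadjusted p under 0.05 was found for 3 of the 47 tested members, beside 935 of all 13384 genes. Under other settings DESeq2 called Psmd2, edgeR called Psme4 with no filter and without 24 h replicate 1, and it called Psme3 and Psme4 with only the groups compared. Of all genes, DESeq2 called 162 of 13384. For edgeR it was 288 of 25864 with no filter and 204 of 12616 with only the groups compared. All 1 h libraries were above vehicle for 6 members (12.8%, against 8.92% of all genes) and below it for 6 (12.8%, against 8.44%). The 6 below included 5 of the 17 core genes. At 24 h no member passed, where 0.105% of all genes did. Here 3 of the 47 tested members had an unadjusted p under 0.05, beside 1120 of all 13384 genes. All 24 h libraries lay above vehicle for 2 members (4.26%, against 6.34% of all genes) and below it for 3 (6.38%, against 5.61%). DESeq2 called none at 24 h, beside 91 of all 13384 genes. The 3 comparisons with vehicle share their controls.

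Between times, no member passed for 6 h against 1 h (0.493% of all genes), 24 h against 6 h (1.76%) or 24 h against 1 h (0.0224%). Of the 47 tested members, 11, 14 and 1 had an unadjusted p under 0.05, beside 2764, 2957 and 818 of all 13384 genes. DESeq2 called 4, 9 and 0 members, beside 848, 1218 and 31 of all 13384 genes. The nearest were Psmd8 for 24 h against 6 h (log2 -0.60, SE 0.15, adjusted p = 0.053) and Psme2b for 6 h against 1 h (-1.35, SE 0.28, adjusted p = 0.054). Without 24 h replicate 3, 10 members were called lower at 24 h than at 6 h, Psme3, Psme4, Psmd2, Psmd4 and Psmd8 among them. Without it 2 were lower at 24 h than at 1 h (Psme3 and Psmf1) and 5 members were called for 6 h against 1 h, and 4 were without 24 h replicate 1. Counts over all genes in these fits are not given here, so the member counts have no background to be read against. A rise at 6 h is not shown to differ from the values at 1 h or 24 h in the fit over all libraries. The spread within a group was widest at 24 h for 22 of the 47 members (44.7% of all genes).

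The order of the 24 h libraries by Psme3, Psme4, Psmd2, Psmd4, Psmd8 and Psmf1 was that of their reticulocyte marker sums, lowest in replicate 1 and highest in replicate 3. Psme2, Psmb5, Psmb6, Psmb8, Psmb9 and Psmb10 ran in the opposite order. How many of all members or all genes follow either order was not counted. At 6 h, where the reticulocyte sum was highest, the group means of the 5 members called higher were highest too. These 5 were picked by their call at 6 h, so their high means there are not separate evidence of a link. At 1 h 11 of 20 reticulocyte markers lay above all vehicle libraries. So did Psme3, Psme4, Psmd2, Psmd4 and Psmd8, while Psmf1 lay below all vehicle libraries. The part of reticulocyte RNA in these results was not tested.

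**Figure D5:**
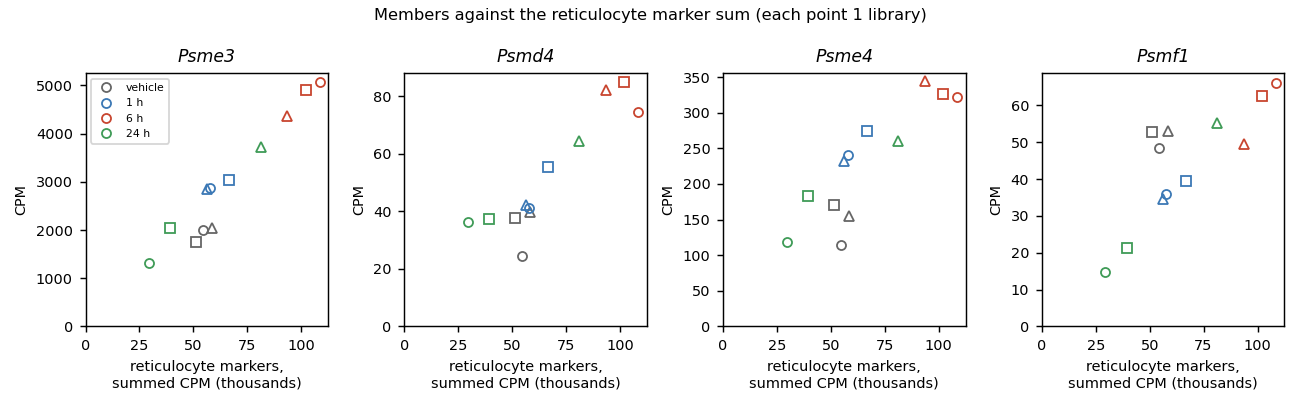
CPM of Psme3, Psmd4, Psme4 and Psmf1 against the summed CPM of 20 reticulocyte markers, 1 point for each of 12 libraries, coloured by group. The 6 h libraries lie at the right, at 93630 to 108500 CPM of marker sum, and the 24 h libraries are spread from 29460 to 81210.

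Other genes of the pathway were taken from lists of cofactors and neighbours in function. Of 14 genes for ubiquitin activation and substrate shuttling, 4 were called higher at 6 h (28.6%, against 4.06% of all genes). None was called lower (0.785% of all genes were), and the median log2 fold change was 0.33. The polyubiquitin gene Ubb had a log2 fold change of 2.03 (SE 0.31, adjusted p = 0.002), and Uba1, the main ubiquitin-activating enzyme, 1.00 (SE 0.16, adjusted p = 0.0026). Vcp, the segregase p97, had 0.61 (SE 0.14, adjusted p = 0.022). By library totals alone the calls of Uba1 (0.54, adjusted p = 0.074) and Vcp (0.15, adjusted p = 0.60) were lost. That of Vcp was also lost without any 1 vehicle library or without 6 h replicate 1 or 2, with adjusted p of 0.076 to 0.10.

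Of 10 tested factors that assemble or bind the proteasome, 2 were called higher at 6 h (20%, against 4.06% of all genes). Usp14, the deubiquitinase bound to the base, had 1.67 (SE 0.35, adjusted p = 0.013), and without vehicle replicate 1 or 2 adjusted p was 0.070 to 0.075. Txnl1, a thioredoxin-like protein of the 19S particle, had 1.13 (SE 0.29, adjusted p = 0.038), and 10 of 12 fits without a library lost the call (adjusted p 0.057 to 0.16). Pomp, the chaperone that completes the core, had 24.9, 28.5 and 35.4 CPM in vehicle and 23.9, 22.0 and 20.8 at 6 h, below all vehicle libraries. Its log2 fold change was -0.41 (SE 0.18, adjusted p = 0.22), and -0.86 (adjusted p = 0.033) by library totals alone. None of the 8 genes of proteasome gene control passed, and Nfe2l1, the factor that raises proteasome genes when the proteasome is inhibited, had -0.28 (SE 0.34, adjusted p = 0.71).

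None of the 12 genes of class I antigen presentation passed at 6 h, where 4.84% of all genes did. Their median log2 fold change was -0.20. Tap1, the peptide transporter, had 54.2, 53.6 and 47.8 CPM in vehicle and 49.3, 31.9 and 37.0 at 6 h, with a log2 fold change of -0.40 (SE 0.22, adjusted p = 0.34). Of 12 interferon-signalling genes, 4 (33.3%, against 4.06% of all genes) rose at 6 h: Isg15 by 1.68 (SE 0.26, adjusted p = 0.002), Usp18 by 1.45 (SE 0.23, adjusted p = 0.0022), Ifit1 by 1.29 (SE 0.23, adjusted p = 0.0058) and Oas3 by 1.26 (SE 0.18, adjusted p = 0.0014). All 6 h libraries lay above vehicle for 6 of the 12 (50%, against 15.8% of all genes). They lay below it for 2 (16.7%, against 13.5%), Irf1 (-0.54, adjusted p = 0.14) and Stat2 (-0.64, adjusted p = 0.15). Of the proteasome genes that interferon gamma induces elsewhere, the 3 immunoproteasome genes and Psme2 had values of -0.21 to 0.21 in the same libraries, and Psme1 had 0.61 (adjusted p = 0.072). No gene of these 5 lists passed at 1 h or 24 h against vehicle. Some did at 1 h under other settings. Ubb passed by library totals alone (1.08, adjusted p = 0.019), by DESeq2 (1.13, adjusted p = 0.012) and with no filter (adjusted p = 0.0015). Usp14 passed with no filter (0.81, adjusted p = 0.018) and Uba1 by DESeq2 (0.57, adjusted p = 0.046). Of the 14 shuttling genes, 6 lay above all vehicle libraries at 1 h (42.9%, against 8.92% of all genes) and 1 below (7.14%, against 8.44%).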

How the data were processed

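Whole-blood RNA was extracted with a PAXgene kit, depleted of ribosomal RNA and sequenced paired-end, per the labels' protocols. The authors deposited whole-number counts per gene for 55367 mouse Ensembl identifiers in 12 libraries. RSEM and the human build hg38 are listed in the submitters' processing notes, with no version of RSEM, and the counts may be its estimates after rounding. For the aligner, annotation and strand setting: not given in the sources used here.

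Gene positions, exon lengths and overlaps came from GENCODE M21 (GRCm38), which matched all 49 members. Counts were filtered by filterByExpr (13384 genes left), scaled by TMM and fitted with edgeR 4.0.16 in R 4.3.3, with 4 group means over 12 libraries, and 6 comparisons were tested by quasi-likelihood. The threshold was a Benjamini-Hochberg adjusted p of 0.05, taken over all tested genes. Log2 CPM used a prior count of 2. Every adjusted p is from this fit unless another tool or setting is named. SE is the standard error of a log2 fold change. Totals of 6496573 to 9978215 counts limit the precision of genes with few counts.

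Alternatives were DESeq2 1.42.0, limma-voom 3.58.1, 2 other scalings, 2 other filters, fewer groups, a replicate block, another prior count and each library left out in turn. Summing Psme2 and Psme2b was chosen after seeing the data. The fit was tested on simulated data. The members, lists and named-gene rule (the 6 catalytic subunits, called members, class extremes at 6 h, and up to 4 genes a pathway list with the smallest p) were chosen with earlier results of these data known. Paaf1 was not used here, and some results that the rule would name are not reported.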

Additional observations from a re-analysis of the deposited data

How the results depend on the processing

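At 6 h against vehicle the count of 6 called members stayed within 5 to 7 in the 9 alternatives that left out no single library, and ranged from 2 to 7 when 1 library was left out. Those 9 alternatives called 624 to 1832 of all genes. By library totals alone the members' median at 6 h was -0.37, and 2 members were called for 6 h against 1 h and 7 for 24 h against 6 h (6 higher, 1 lower). Of all 13384 genes, that scaling called 674 and 2951 in these comparisons. At 1 h against vehicle, 1 member was called with no filter, 1 by DESeq2 and 2 with only the groups compared, with a range of 0 to 1 without 1 library. Over all genes these settings called 288 of 25864, 162 of 13384 and 204 of 12616. For 6 h against 1 h, the count of 0 became 4 with no filter, 1 at 5 CPM, 4 by DESeq2 and 7 with only the groups compared, and 0 to 5 without 1 library. The first 4 settings called 1227 of 25864, 89 of 9569, 848 of 13384 and 1720 of 12466 genes. For 24 h against 6 h the member count became 4 with no filter, 1 at 5 CPM, 9 by DESeq2 and 5 by limma-voom, and 0 to 10 without 1 library. Here the first 4 settings called 1477 of 25864, 445 of 9569, 1218 of 13384 and 729 of 13384 genes. Without 1 library, 0 to 1 members were called at 24 h against vehicle and 0 to 2 for 24 h against 1 h. For all fits without 1 library the counts over all genes are not given here. Their member ranges therefore cannot be set against the whole table. The cause of these changes in called members was not tested. Immunoproteasome minus constitutive at 6 h minus vehicle was -0.47 to -0.25 without 1 library. Members with few counts, such as Psmg3 and Psmg4, were limited by depth.

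Libraries with the same replicate number had a mean r of 0.02 in their deviations over 18 pairs, 2 of them over 0.1. Libraries of other numbers had a mean r of -0.008 over 36 pairs, 6 of them over 0.1. Of the 12 libraries, 6 were closest to one with their own number. The number is not taken as a pairing, though these values do not exclude one. With the replicate block, 6 members were called at 6 h against vehicle and 2 for 24 h against 6 h (Psmd8 and Psme4). Of all 13384 genes, that fit called 624 and 418.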

Other observations

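Psme2 was high in 24 h replicate 1, with 330 counts and 38.4 CPM, beside 9.96 and 6.72 CPM in the other 24 h libraries and 9.78 to 11.3 in vehicle. Psme2b did not stand apart in that library, at 4.42 CPM. The 5 named pseudogenes of proteasome subunits had 17 counts in all.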
